A study of Homo sapiens with 20 samples.

Results

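The genes described here are 41 interferon-stimulated genes (ISGs), taken by gene name from a list of ISGs. All were found among the 60719 genes of the deposited table. The matching by name used no measured value, but the list was chosen with earlier results of these data known. RNA was sequenced from 20 libraries of WT Jurkat cells, a human T cell leukemia line, and of JinB8, a CD47-deficient (CD47-) mutant line made from Jurkat cells, with 10 libraries per line. In each line, untreated cells were sequenced at 1 h, and cells on plates coated with anti-CD3 and 4 µg/ml anti-CD28 (CD3+CD28), cells on the same antibodies with 1 µg/ml thrombospondin-1 (CD3+CD28+TSP1) and cells with TSP1 alone were each sequenced at 1, 3 and 6 h. TSP1 is a secreted ligand of CD47, and anti-CD3 with anti-CD28 engages the T cell receptor and its costimulator. No group received an interferon, so the levels below are those of cells under culture and activation. Each condition was sequenced once. Cells were plated for each treatment and time, but nothing in the sources says that the platings of a line came from separately grown cultures. The p-values thus measure only the spread between these libraries. JinB8 is a single mutant line, and the loss of CD47 cannot be told apart from other differences between it and its parent.

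Type I interferons bind the receptor pair IFNAR1 and IFNAR2, and the kinases JAK1 and TYK2 then phosphorylate STAT proteins. STAT2 and IRF9 are parts of the resulting complex, called ISGF3, which binds the interferon-stimulated response element (ISRE) of its target genes, whereas interferon gamma acts through GAS elements. ISGs encode proteins that bind viral RNA, block entry or assembly of viruses, sense foreign nucleic acid or feed back on the pathway, and many of them keep a low basal level in cells that have met no interferon.

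The promoters show what the members have in common in sequence. RefSeq promoter entries on GRCh38.p14, each 300 bases long (250 before the start and 50 after), were matched by symbol for 33 of the 41 members. The letters TTTCNNTTTC, an ISRE core also searched as GAAANNGAAA on the other strand, stood in a promoter of 22 of these 33 members (66.7%) and of 4.38% of the 27305 genes with an entry. The letters TTCNNNGAA, a GAS core that reads the same on both strands, stood in 10 of 33 members (30.3%) and in 9.38% of all genes. The ISRE letters were found in 4 of 6 members higher in JinB8, in 13 of 17 members lower in JinB8 and in 3 of 8 members tested without a call, so the letters were present on both sides of the comparison described below. The stretches shown are 60 bases long, written from 5′ to 3′ on the strand of the gene with the ISRE letters in capitals, and stand for members that were lower in JinB8 (the IFIT genes, IFIH1, HERC5, PARP9, BST2), higher (IFITM1, IFITM3, OAS3) or without a call (ISG15).
IFIT1, chr10:89392482-89392541, plus strand: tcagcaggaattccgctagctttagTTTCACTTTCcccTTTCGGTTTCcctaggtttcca
IFIT3, chr10:89332410-89332469, plus strand: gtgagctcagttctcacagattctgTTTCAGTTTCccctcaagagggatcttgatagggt
IFIT5, chr10:89414498-89414557, plus strand: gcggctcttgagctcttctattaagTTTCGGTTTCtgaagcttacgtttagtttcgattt
IFIH1, chr2:162318806-162318865, minus strand: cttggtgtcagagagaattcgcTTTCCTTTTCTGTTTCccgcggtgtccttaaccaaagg
HERC5, chr4:88456972-88457031, plus strand: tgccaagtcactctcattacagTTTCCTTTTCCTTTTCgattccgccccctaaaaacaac
PARP9, chr3:122564307-122564366, minus strand: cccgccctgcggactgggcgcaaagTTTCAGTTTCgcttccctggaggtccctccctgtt
BST2, chr19:17405723-17405782, minus strand: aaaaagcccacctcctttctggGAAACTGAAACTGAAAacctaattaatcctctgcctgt
IFITM1, chr11:313975-314034, plus strand: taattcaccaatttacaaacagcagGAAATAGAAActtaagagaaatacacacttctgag
IFITM3, chr11:320878-320937, minus strand: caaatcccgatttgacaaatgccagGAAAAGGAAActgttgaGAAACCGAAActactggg
OAS3, chr12:112938306-112938365, plus strand: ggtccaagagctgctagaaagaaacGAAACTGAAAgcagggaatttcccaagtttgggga
ISG15, chr1:1013362-1013421, plus strand: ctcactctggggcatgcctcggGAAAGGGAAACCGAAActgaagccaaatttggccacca
The ISRE letters of IFIT1 and IFITM3 were present at 2 places in the stretch, and those of IFIH1, HERC5, BST2 and ISG15 formed runs of 16 bases in which matches overlapped. The PARP9 stretch is also the DTX3L promoter, read on the plus strand, since both genes start there and run apart. The promoters of IRF1 and IRF9, which encode factors of the pathway, held the GAS letters, in capitals here.
IRF1, chr5:132490864-132490923, minus strand: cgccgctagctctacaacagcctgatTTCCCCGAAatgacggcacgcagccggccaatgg
IRF9, chr14:24161176-24161235, plus strand: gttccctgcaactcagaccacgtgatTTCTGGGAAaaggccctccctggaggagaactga
A match of letters is a description of these windows and not a measured binding site. OASL, IFITM2, IFIT2, USP18, MX2, OAS2, IRF7 and TRIM22 had no entry.

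Levels are given as CPM, that is, deposited expected counts relative to the total of their library after TMM scaling in edgeR. The log2 fold changes carry an SE from the edgeR quasi-likelihood test, and p-values were adjusted over all 16327 genes tested. Libraries held between 16107921 and 31737616 counts, and 3 counts corresponded to 0.0979 to 0.156 CPM. CD47 itself was between 253 and 372 CPM in Jurkat and between 124 and 165 CPM in JinB8 and gave a log2 fold change of -1.10 (SE 0.0784, with an adjusted p of 1.05e-10 in edgeR), so its mRNA was lower but present in the deficient line. The library of JinB8 with CD3+CD28+TSP1 at 3 h had the smallest total. Without it 10 members were called higher and 17 lower between the lines. With all libraries 9 were higher, beside 19.8% of all genes, and 18 lower, beside 20.6%. The shares of all genes without that library are not given here. Summed T cell markers were at 1586 to 2183 CPM in Jurkat and 1730 to 2483 CPM in JinB8, with all 12 genes tested, of which 6 were called higher and 2 lower in JinB8. The single genes could differ far more than the sum, as for TRAC with means of 184.5 CPM in Jurkat and 21.8 CPM in JinB8 and for CD28 with 45.1 and 230.0 CPM. Summed B cell markers were higher in Jurkat (35.6 to 56.0 against 5.86 to 13.7 CPM), and their level was mostly that of CD79A. Summed myeloid markers (0.400 to 1.58 against 0.484 to 1.92 CPM), NK markers (0 to 0.939 against 0.163 to 0.519 CPM) and stromal and epithelial markers (1.93 to 5.58 against 3.67 to 7.53 CPM) were low in both lines, and no gene of these lists was at 0 in all libraries. The part of these markers in the results was not tested. In bulk RNA, fewer cells with an mRNA and less of it per cell cannot be told apart.

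Comparing the lines asked which ISGs differ where CD47 is deficient. The members split by family: the IFIT, HERC, SAMD9 and PARP genes were lower in JinB8, and the IFITM genes, MX2 and a pair of 2-5A synthetases were higher. Of the 39 members tested, 27 (69.2%) were called by edgeR, beside 40.4% of all genes, with 18 lower (20.6% of all genes) and 9 higher (19.8% of all genes). The median log2 fold change was -0.28 over the members and -0.0066 over all genes tested. The 10 libraries of the lines did not overlap for 16 members, 10 lower and 6 higher, beside 11.5% of all genes (5.48% lower and 6.01% higher). The 2 other members did not pass the low-count filter and were not tested. IFI44L had 41 counts over the Jurkat and 6 over the JinB8 libraries and was lower in JinB8 in 9 of 10 pairs. MX1, a GTPase that traps viral nucleocapsids, had 77 and 40 counts and was lower in 7 of 10 pairs.

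**Figure D1:**
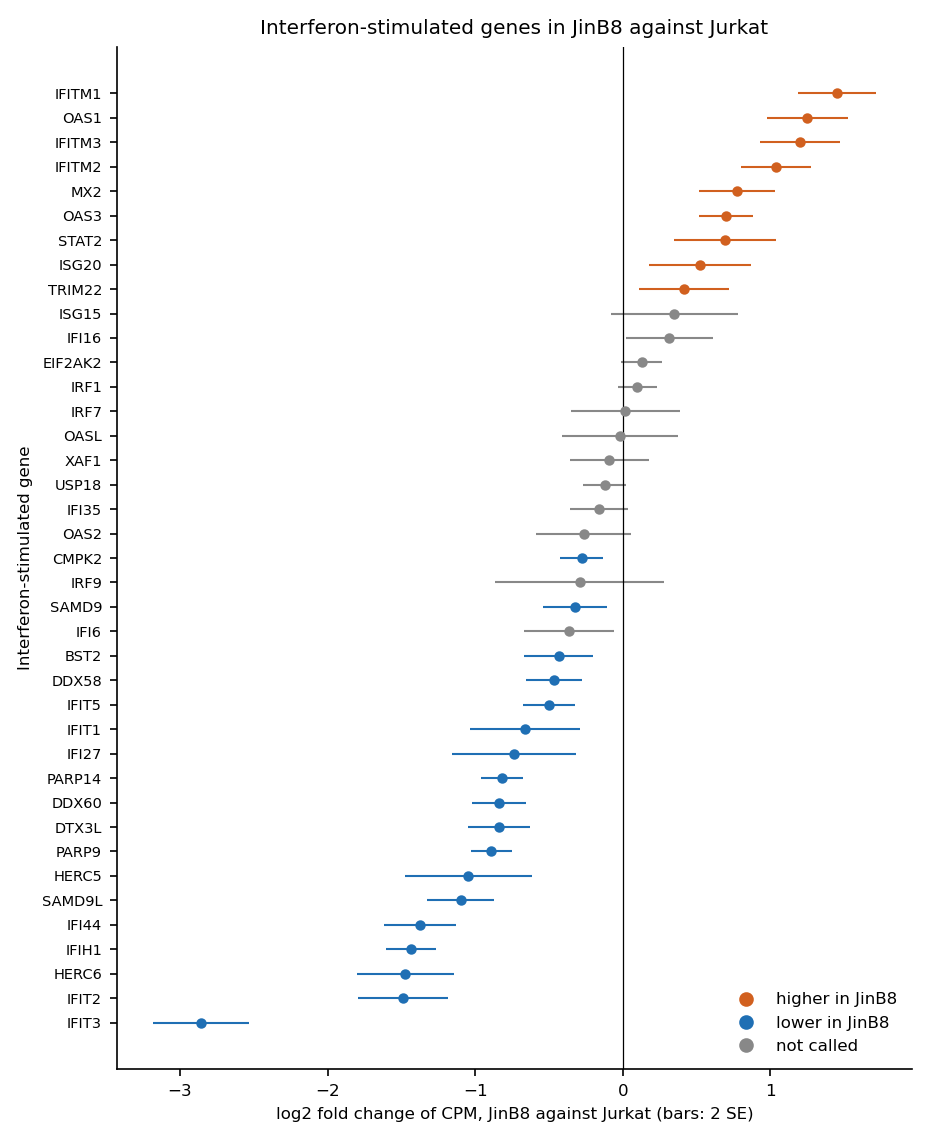
Log2 fold change of CPM in JinB8 against Jurkat for the 39 members tested, with bars of 2 SE, 10 libraries per line. Orange members were called higher in JinB8, blue members lower and grey members were not called at an adjusted p under 0.05. IFIT3 lies farthest to the left at -2.86 and IFITM1 farthest to the right at 1.45.

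The IFIT proteins bind viral RNA that lacks the marks of host mRNA, and their genes lie side by side on chromosome 10 of GRCh38, from 89283694 (start of IFIT2) to 89421605 (end of IFIT5). All 4 were lower in JinB8. IFIT3, which stabilizes the IFIT1 complex, was between 4.20 and 8.17 CPM in Jurkat (median 5.11) and between 0.519 and 1.14 CPM in JinB8 (median 0.748). The lowest Jurkat library was thus above the highest JinB8 library, and the mean was 7.34-fold higher in Jurkat (log2 fold change -2.86, SE 0.163, adjusted p = 2.3e-12). IFIT2 also showed no overlap, with 7.11 to 13.2 CPM in Jurkat (median 9.54) and 2.13 to 4.68 CPM in JinB8 (median 3.37, log2 fold change -1.49, SE 0.152, adjusted p = 4.1e-08). The levels of IFIT1 (2.36 to 5.35 against 1.67 to 4.17 CPM, log2 fold change -0.66, adjusted p = 0.00686) and IFIT5 (28.1 to 39.2 against 17.5 to 29.5 CPM, log2 fold change -0.50, adjusted p = 6.9e-05) overlapped between the lines, although both were lower in JinB8 in 10 of 10 pairs of libraries matched by treatment and time. IFIT1, IFIT2 and IFIT3 lie within the span of LIPA on the opposite strand, and the strand setting of the counting is not given in the sources used here.

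ISG15 is a ubiquitin-like protein, HERC5 is its main ligase in human cells, HERC6 is a related ligase and USP18 removes ISG15 from proteins. Both HERC genes, neighbours on chromosome 4 of GRCh38, were lower in JinB8. HERC6 was between 4.25 and 9.11 CPM in Jurkat (median 5.29) and between 1.51 and 3.22 CPM in JinB8 (median 2.18), without overlap (log2 fold change -1.47, SE 0.164, adjusted p = 1.7e-07). HERC5 ranged from 34.4 to 85.1 CPM in Jurkat (median 53.8) and from 14.6 to 40.2 CPM in JinB8 (median 29.1), and was lower in 10 of 10 pairs (log2 fold change -1.05, SE 0.215, adjusted p = 0.000413). The ranges of HERC5 overlapped, and the lowest libraries of each line were those of 6 h. ISG15 itself was not called, at 8.03 to 23.7 CPM in Jurkat and 8.24 to 26.9 CPM in JinB8 (log2 fold change 0.35, SE 0.215, adjusted p = 0.207), and neither was USP18 at -0.12.

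Among the sensors of foreign nucleic acid, the 3 RNA helicases were lower in JinB8. IFIH1 (MDA5), which detects long double-stranded RNA, was between 17.2 and 22.9 CPM in Jurkat (median 20.5) and between 5.71 and 9.09 CPM in JinB8 (median 7.44, log2 fold change -1.43, SE 0.0858, adjusted p = 5.1e-12). No JinB8 library thus came near the Jurkat range. DDX58 (RIG-I), the sensor of short RNA with a triphosphate end, was between 21.9 and 32.9 CPM in Jurkat (median 27.7) and between 16.7 and 24.9 CPM in JinB8 (median 19.6), so the groups overlapped (log2 fold change -0.46, SE 0.0938, adjusted p = 0.000351). DDX60, a related helicase, did not overlap at 24.3 to 34.7 against 12.8 to 19.1 CPM (log2 fold change -0.84, adjusted p = 1.3e-07). EIF2AK2, the kinase PKR that halts translation on binding double-stranded RNA, was not called (0.13), nor was the DNA sensor IFI16 at 0.32 (SE 0.148, adjusted p = 0.0939). With the matched pairs as a block, IFI16 was called higher in JinB8 (0.31, adjusted p = 0.00522).

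PARP9 and DTX3L form a complex that adds ubiquitin to histones and viral proteins, and PARP14 is an ADP-ribosyltransferase encoded beside them on chromosome 3. All 3 were lower in JinB8 without overlap between the lines. PARP9 was between 30.4 and 38.1 CPM in Jurkat (median 33.5) and between 14.9 and 21.2 CPM in JinB8 (median 17.9, log2 fold change -0.89, SE 0.0694, adjusted p = 5.1e-10). DTX3L (70.0 to 97.3 against 34.3 to 60.3 CPM) and PARP14 (106 to 152 against 64.9 to 77.5 CPM) gave log2 fold changes of -0.84 and -0.82. PARP9 and DTX3L share 240 bases on opposite strands, so a small part of their reads may not be told apart. SAMD9 and SAMD9L, neighbours on chromosome 7 that restrict poxviruses and slow cell growth, were also both lower. SAMD9L was between 21.6 and 38.98 CPM in Jurkat (median 30.6) and between 11.4 and 16.9 CPM in JinB8 (median 13.6, log2 fold change -1.10, SE 0.114, adjusted p = 5.7e-08). The SAMD9 ranges overlapped (99.8 to 140 against 63.5 to 121 CPM, log2 fold change -0.32, adjusted p = 0.0216), and without the JinB8 library of CD3+CD28+TSP1 at 3 h its adjusted p was 0.0510.

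**Figure D2:**
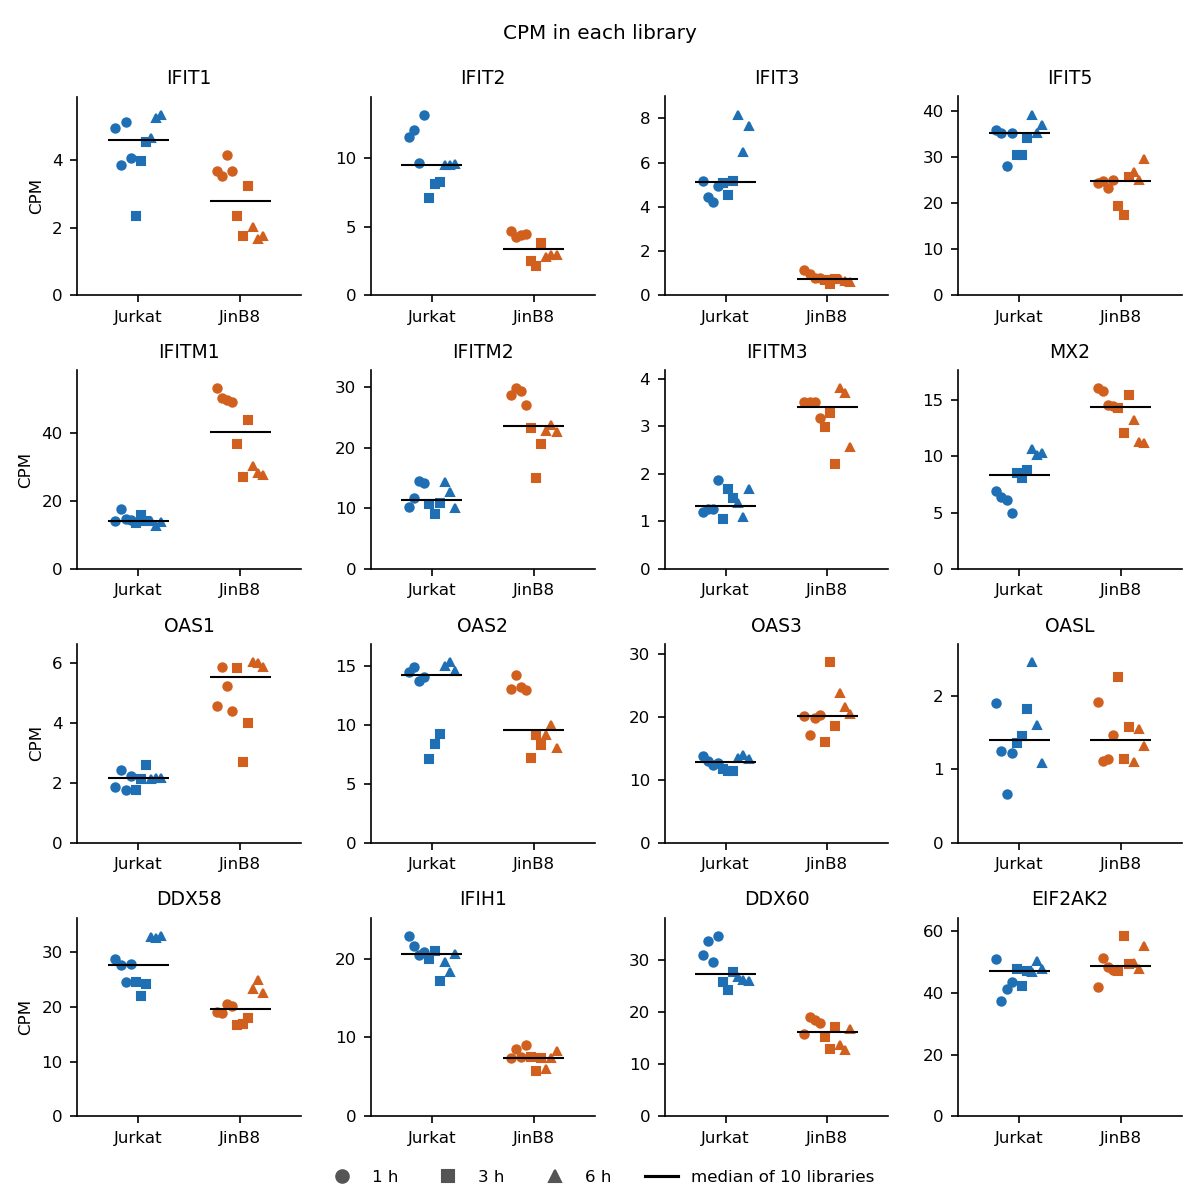
CPM of 16 members in each of the 10 Jurkat and 10 JinB8 libraries, with the marker shape giving the time and the bar the median of 10 libraries. Each panel starts at 0. The lines are apart for IFIT3, IFIT2, IFIH1 and the 3 IFITM genes and overlap for IFIT1, IFIT5, OAS2, OASL, DDX58 and EIF2AK2.

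The remaining effectors gave calls in both directions, with 4 lower, 2 higher and 3 not called of 9 tested, beside 20.6% of all genes lower and 19.8% higher. IFI44, a cytoplasmic protein induced by interferon, was between 3.26 and 5.89 CPM in Jurkat (median 4.66) and between 1.41 and 2.04 CPM in JinB8 (median 1.67), without overlap (log2 fold change -1.37, SE 0.121, adjusted p = 4.0e-09). BST2 (tetherin), which holds budding virus at the cell surface, was lower at -0.43, the low-expressed mitochondrial protein gene IFI27 at -0.74, and the nucleotide kinase gene CMPK2 at -0.28. ISG20, a nuclease of single-stranded RNA, was higher in JinB8 in 10 of 10 pairs, at 3.51 to 7.83 CPM in Jurkat (median 5.65) and 5.37 to 13.8 CPM in JinB8 (median 7.84, log2 fold change 0.52, SE 0.174, adjusted p = 0.0195). TRIM22, a ubiquitin ligase that represses viral transcription, was called higher by edgeR at 0.42 (adjusted p = 0.0332) but in only 6 of 10 pairs. The call was lost with limma voom (0.32, adjusted p = 0.133) and with any 1 h library of JinB8 left out. TRIM22 shares 47480 bases with TRIM5 on the opposite strand, and TRIM5 was also called higher (0.43). It overlaps OR52P1 and OR56B1 on the same strand, so its level may hold or lack reads of these genes. IFI6, an inhibitor of cell death and of flavivirus replication, was not called at -0.37 (adjusted p = 0.0612) and was called lower with the matched pairs as a block (-0.33, adjusted p = 0.00559). XAF1 (-0.09) and IFI35 (-0.16, 3.99 to 5.67 against 3.53 to 4.95 CPM), a partner of NMI, were not called, although limma voom called IFI35 lower (-0.27, adjusted p = 0.0436).

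The IFITM proteins sit in the plasma and endosomal membranes and hinder the entry of enveloped viruses, and their genes are neighbours on chromosome 11 of GRCh38 (303655 to 329475). All 3 were higher in JinB8 with no overlap between the lines. IFITM1 was between 12.6 and 17.6 CPM in Jurkat (median 14.2) and between 27.1 and 53.1 CPM in JinB8 (median 40.3), a 2.73-fold higher mean (log2 fold change 1.45, SE 0.131, adjusted p = 5.9e-09). IFITM2 was between 9.10 and 14.5 CPM in Jurkat (median 11.3) and between 14.96 and 29.9 CPM in JinB8 (median 23.6, log2 fold change 1.04, SE 0.12, adjusted p = 2.7e-07). IFITM3 was low, at 1.06 to 1.88 CPM in Jurkat (median 1.32) and 2.22 to 3.80 CPM in JinB8 (median 3.40, log2 fold change 1.20, SE 0.136, adjusted p = 1.9e-07). The 3 genes are similar in sequence, so their reads may have been split between them, and the gain of each taken alone is uncertain. IFITM1 and IFITM2 also overlap another gene model on the same strand, as do IRF9 (5219 shared bases) and DDX58 (70886 shared bases), so the levels of these genes may hold or lack reads of that model.

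The 2-5A synthetases make the messenger that switches on RNase L, and OAS1, OAS3 and OAS2 lie in a row on chromosome 12 of GRCh38 (112905856 to 113011723). OAS1 was between 1.74 and 2.60 CPM in Jurkat (median 2.14) and between 2.70 and 6.03 CPM in JinB8 (median 5.53, log2 fold change 1.25, SE 0.137, adjusted p = 1.3e-07). OAS3 was between 11.4 and 13.9 CPM in Jurkat (median 12.8) and between 16.03 and 28.7 CPM in JinB8 (median 20.2, log2 fold change 0.70, SE 0.0915, adjusted p = 1.6e-06). Neither gene overlapped between the lines. OAS2, the third of the row, was not called at -0.27, although the block of matched pairs gave a call (-0.26, adjusted p = 0.0413), and the inactive relative OASL stood at -0.02. MX2, a nuclear-envelope GTPase that blocks HIV-1, was between 4.96 and 10.7 CPM in Jurkat (median 8.31) and between 11.2 and 16.1 CPM in JinB8 (median 14.4, log2 fold change 0.77, SE 0.129, adjusted p = 4.1e-05). On the log2 scale, the matched pairs of MX2 differed on average by 1.26 in the 1 h libraries, by 0.68 at 3 h and by 0.19 at 6 h, so the separation was widest in the earliest libraries.

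Of the 4 transcription factor genes, only STAT2 was called between the lines. STAT2 was between 23.7 and 47.9 CPM in Jurkat (median 33.0) and between 38.8 and 84.2 CPM in JinB8 (median 49.2), and was higher in 10 of 10 pairs although the ranges overlapped (log2 fold change 0.69, SE 0.174, adjusted p = 0.00268). IRF9, its partner in ISGF3, was between 7.98 and 20.3 CPM in Jurkat (median 10.3) and between 4.05 and 17.9 CPM in JinB8 (median 9.23), and was not called at -0.29 (SE 0.287, adjusted p = 0.446). Its interval of 2 SE ran from -0.87 to 0.28, and with the matched pairs as a block it was called lower (-0.38, adjusted p = 0.00841). IRF1, an early activator induced by interferon gamma, was between 63.1 and 89.2 CPM in Jurkat (median 74.0) and between 75.7 and 90.4 CPM in JinB8 (median 78.9, log2 fold change 0.10, adjusted p = 0.256). IRF7, the factor that amplifies interferon alpha genes, was between 4.52 and 13.3 CPM in Jurkat (median 7.66) and between 4.28 and 10.1 CPM in JinB8 (median 7.78), with a log2 fold change of 0.02 and an interval of -0.35 to 0.39.

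Isoform counts showed where a gene-level value sums unlike transcripts. Of 327 annotated isoforms of the members, 115 isoforms of 38 members were tested, and 37 were called, 13 higher and 24 lower in JinB8, beside 15.1% of all 55450 isoforms tested (7.51% higher and 7.55% lower). The main IFIT3 isoform, ENST00000371818.9, was at 5.23 ± 1.64 CPM in Jurkat and 0.405 ± 0.355 CPM in JinB8 (SD, n = 10 libraries), with a log2 fold change of -3.67 (adjusted p = 0.000146). For IRF1, which was not called as a gene, isoform ENST00000472045.1 was higher in JinB8, from 16.9 to 21.2 CPM in Jurkat and from 25.8 to 32.2 CPM in JinB8 (log2 fold change 0.59, SE 0.0658, adjusted p = 1.4e-06). The more abundant IRF1 isoform ENST00000245414.9 had a mean of 34.4 CPM in both lines. The IFI16 isoform ENST00000295809.12 was likewise called higher, at 16.5 ± 6.97 CPM in Jurkat and 34.3 ± 14.2 CPM in JinB8 (log2 fold change 1.05, adjusted p = 0.00863). The OAS2 isoform ENST00000449768.2 was lower, at 3.01 ± 0.922 against 1.81 ± 0.365 CPM (log2 fold change -0.73, adjusted p = 0.00799), while the more abundant ENST00000392583.7 was not called at -0.21. The STAT2 isoform ENST00000314128.9 followed its gene at 13.3 ± 4.66 against 27.0 ± 10.7 CPM (log2 fold change 1.02, adjusted p = 0.00386). RSEM shares reads among isoforms by estimate, so these levels are less certain than those of genes.

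Several members changed with time. The 6 h libraries of a line (3) were compared with its 1 h libraries of the same treatments (3). The 3 h libraries were compared with the same 1 h libraries, so both contrasts share them. The untreated library, sequenced only at 1 h, had its own coefficient in the model and did not enter the time terms. The CPM means and ranges of 1 h given below include it. From 1 to 6 h, 17 of 39 members changed in Jurkat, 9 higher and 8 lower, beside 50.5% of all genes (25.7% higher and 24.8% lower), and 22 changed in JinB8, 6 higher and 16 lower, beside 53.0% of all genes (26.0% higher and 27.0% lower). From 1 to 3 h, 10 members changed in Jurkat, 1 higher and 9 lower, beside 34.3% of all genes (16.9% and 17.4%), and 15 changed in JinB8, 1 higher and 14 lower, beside 38.0% (18.0% and 20.1%). Single libraries moved the counts of 3 h: 17 members (43.6%, beside 43.3% of all genes) were called in Jurkat without the JinB8 library of CD3+CD28+TSP1 at 3 h, and 9 (23.1%, beside 29.4%) in JinB8 without its library of CD3+CD28+TSP1 at 1 h. With both directions together, the shares of members called lay near or below those of all genes in these fits. By direction, the downward share in JinB8 lay above that of all genes. There 16 of 39 members were lower at 6 h, beside 27.0%, and 14 at 3 h, beside 20.1%. The upward share lay below it, with 6 members at 6 h, beside 26.0%, and 1 at 3 h, beside 18.0%. At 3 h the calls were mostly downward in both lines. Among the members called at 6 h in both lines, 8 were lower in both, 5 were higher in both and MX2 moved in opposite directions. The 13 that moved the same way made up 76.5% of the Jurkat calls and 59.1% of the JinB8 calls, beside 68.9% and 65.6% for all genes.

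The ISGF3 genes IRF9 and STAT2 fell in both lines. IRF9 stood at 19.5, 18.9, 20.3 and 18.2 CPM in the Jurkat libraries of 1 h (untreated, CD3+CD28, CD3+CD28+TSP1 and TSP1), at 8.72, 10.5 and 10.1 CPM at 3 h (CD3+CD28, CD3+CD28+TSP1 and TSP1) and at 7.98, 8.25 and 9.08 CPM at 6 h in the same order. In JinB8 it stood at 15.9, 17.9, 16.5 and 16.9 CPM at 1 h, at 8.89, 9.57 and 8.04 CPM at 3 h and at 4.87, 4.05 and 4.57 CPM at 6 h. Every 6 h library of IRF9 was thus below every 1 h library of its line, whatever the treatment. The log2 fold change at 6 h was -1.18 in Jurkat (SE 0.103, adjusted p = 5.7e-07) and -1.93 in JinB8 (SE 0.11, adjusted p = 1.2e-08), and at 3 h it was -0.97 and -0.95. STAT2 went from 46.3 CPM at 1 h to 26.8 CPM at 3 h and 32.3 CPM at 6 h in Jurkat, and from 80.1 to 47.5 and 40.9 CPM in JinB8 (means of 4, 3 and 3 libraries). Its log2 fold change at 6 h was -0.53 in Jurkat (SE 0.0835, adjusted p = 0.000125) and -0.98 in JinB8 (SE 0.0825, adjusted p = 3.3e-07).

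HERC5 fell by 1.12 on the log2 scale in Jurkat from 1 to 6 h (SE 0.113, adjusted p = 2.2e-06) and by 1.23 in JinB8 (SE 0.119, adjusted p = 1.2e-06). Its Jurkat libraries stood at 66.5 to 85.1 CPM at 1 h, 50.04 to 57.1 CPM at 3 h and 34.4 to 35.9 CPM at 6 h, and its JinB8 libraries at 35.3 to 40.2, 19.0 to 30.7 and 14.6 to 17.2 CPM. The ligase gene thus stepped down at each time in both lines, and its matched pairs differed by -1.02 at 1 h and -1.11 at 6 h on average. The IFI16 level dipped at 3 h in Jurkat, from a mean of 212 CPM at 1 h to 125 CPM (log2 fold change -0.77, SE 0.0596, adjusted p = 9.3e-07), and stood at 202 CPM at 6 h. In JinB8 the IFI16 mean fell from 294 to 179 CPM at 3 h and stayed at 189 CPM at 6 h (log2 fold change at 6 h -0.66, SE 0.0592, adjusted p = 6.4e-07). OAS2 showed the same dip at 3 h, from 14.3 to 8.23 CPM in Jurkat (-0.79) and from 13.4 to 8.22 CPM in JinB8 (-0.72), followed by 15.01 CPM in Jurkat and 9.10 CPM in JinB8 at 6 h. SAMD9L fell by 0.63 in Jurkat at 3 h, and TRIM22 fell by 0.73 in JinB8 at 3 h.

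Other members rose. DTX3L rose in both lines at 6 h, from 74.7 to 94.1 CPM in Jurkat (0.35) and from 37.8 to 57.7 CPM in JinB8 (0.61). XAF1, a pro-apoptotic factor, rose by 0.30 in Jurkat and 0.52 in JinB8, and HERC6 and DDX58 rose in both lines as well. IFI6 rose in Jurkat from 11.2 to 17.8 CPM at 1 h to 25.9 to 28.1 CPM at 6 h (log2 fold change 0.77, SE 0.133, adjusted p = 0.000249) and by 0.44 in JinB8. ISG15 was called higher in JinB8 at 3 h (0.89) and 6 h (1.02), although its 4 JinB8 libraries of 1 h spread from 8.24 to 23 CPM. The highest of these was the untreated library, which did not enter the time terms. The treated libraries stood at 8.24 to 15.6 CPM at 1 h and 22.3 to 26.5 CPM at 6 h, so the untreated level lay within the 6 h range. In Jurkat the ISG15 mean went from 13.5 CPM at 1 h to 22.1 CPM at 6 h without a call (0.61, adjusted p = 0.0714 in edgeR). The ratio of means was 1.64 in either line with the untreated library counted in the means of 1 h, unlike in the log2 fold changes. The difference between the lines was not called (0.41, adjusted p = 0.505).

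**Figure D3:**
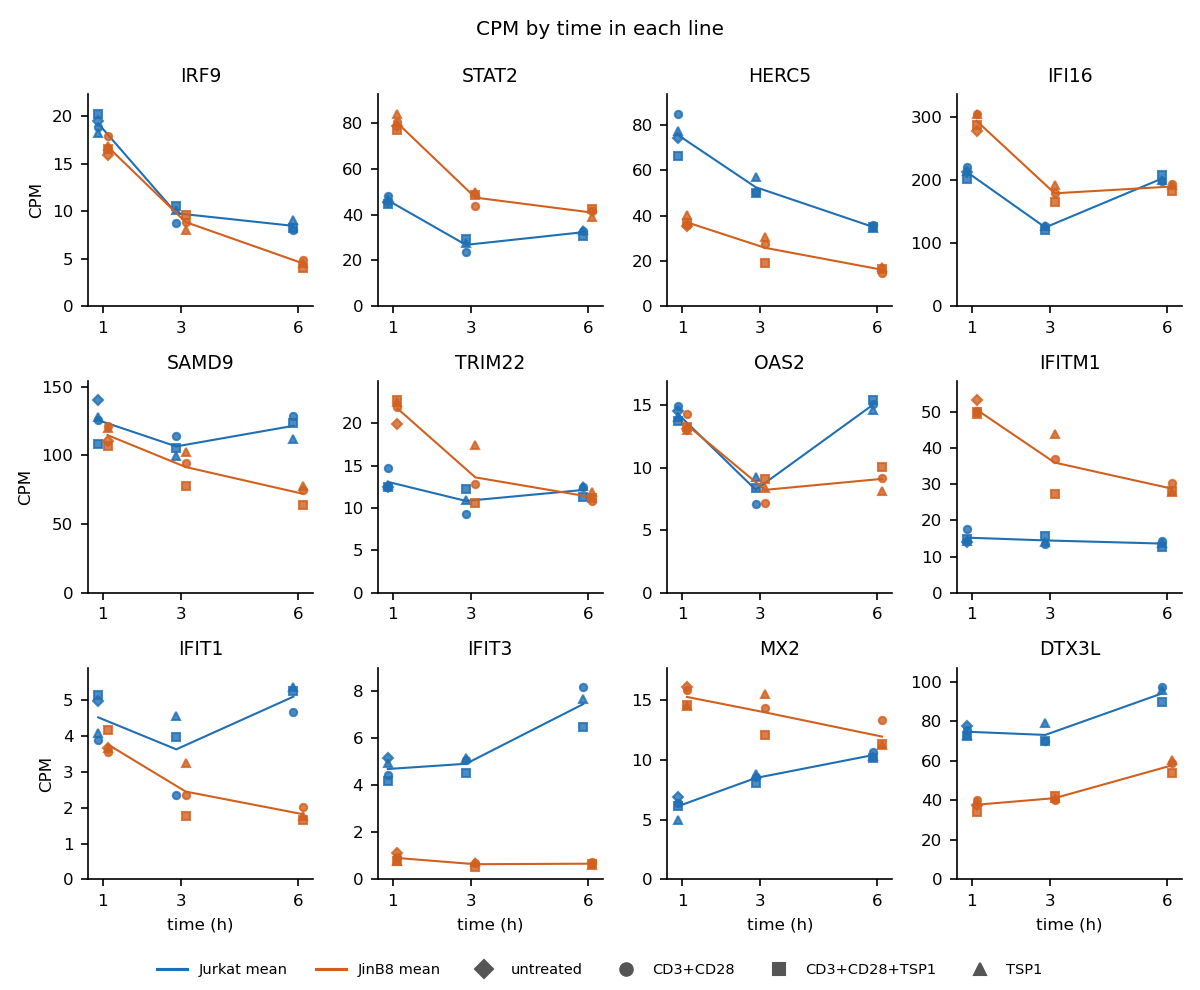
CPM of 12 members by time in h, Jurkat and JinB8, with a point per library (the shape gives the treatment) and a line through the mean of each time (4 libraries at 1 h, 3 at 3 h and 3 at 6 h). Each panel starts at 0. IRF9, STAT2 and HERC5 go down in both lines, and MX2 goes up in Jurkat (6.10 to 10.4 CPM) and down in JinB8 (15.2 to 11.9 CPM).

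Whether the change from 1 to 6 h differed between the lines was tested as an interaction. This gave 10 members, each with a more negative change in JinB8 (10.2% of all genes) and none with a more positive change (6.46% of all genes), beside 16.6% of all genes in either direction. MX2, the member with the smallest p, stood at 4.96 to 6.92 CPM at 1 h and 10.1 to 10.7 CPM at 6 h in Jurkat, and at 14.5 to 16.1 CPM and 11.2 to 13.3 CPM in JinB8. It thus rose in Jurkat (0.84) and fell in JinB8 (-0.33), with a difference of -1.17 (SE 0.158, adjusted p = 0.000292). IFI16 differed by -0.59 (SE 0.0835, adjusted p = 0.000396), its Jurkat mean at 6 h being 202 CPM beside 212 CPM at 1 h. SAMD9 fell in JinB8 from 107 to 121 CPM at 1 h to 63.5 to 77.9 CPM at 6 h and stood at 109 to 140 and 112 to 129 CPM in Jurkat, a difference of -0.70 (SE 0.102, adjusted p = 0.000473). IRF9 differed by -0.75 (SE 0.15, adjusted p = 0.00426), its fall being deeper in JinB8, and TRIM22 by -0.86 (SE 0.196, adjusted p = 0.00916), going from 19.9 to 22.7 CPM at 1 h to 10.8 to 11.8 CPM at 6 h in JinB8 and from 12.4 to 14.7 to 11.3 to 12.6 CPM in Jurkat.

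The other 5 members of this group were IFIT1 (-1.29, adjusted p = 0.0117), IFIT3 (-1.02, adjusted p = 0.016), OAS2 (-0.65), STAT2 (-0.45) and IFITM1 (-0.59, adjusted p = 0.0409). IFIT1 stood at 3.87 to 5.13 CPM at 1 h and 4.66 to 5.35 CPM at 6 h in Jurkat, and at 3.54 to 4.17 and 1.67 to 2.02 CPM in JinB8, so that the lines were close at 1 h and well apart at 6 h. IFIT3 rose in Jurkat, from 4.20 to 5.17 CPM at 1 h to 6.49 to 8.17 CPM at 6 h, and stood at 0.775 to 1.14 and 0.616 to 0.748 CPM in JinB8. IFITM1 was the reverse in level, since it was the higher of the lines in JinB8 and fell there from 49.2 to 53.1 CPM at 1 h to 27.8 to 30.3 CPM at 6 h, while Jurkat stood at 14.1 to 17.6 and 12.6 to 14.2 CPM. The count of this group depended on single libraries. It was 5 without the JinB8 library of TSP1 at 6 h. It was 6 without that of CD3+CD28 at 1 h or without the Jurkat library of CD3+CD28 at 6 h. The shares of all genes in these fits are not given here, so the counts do not show whether the drop was particular to the members.

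**Figure D4:**
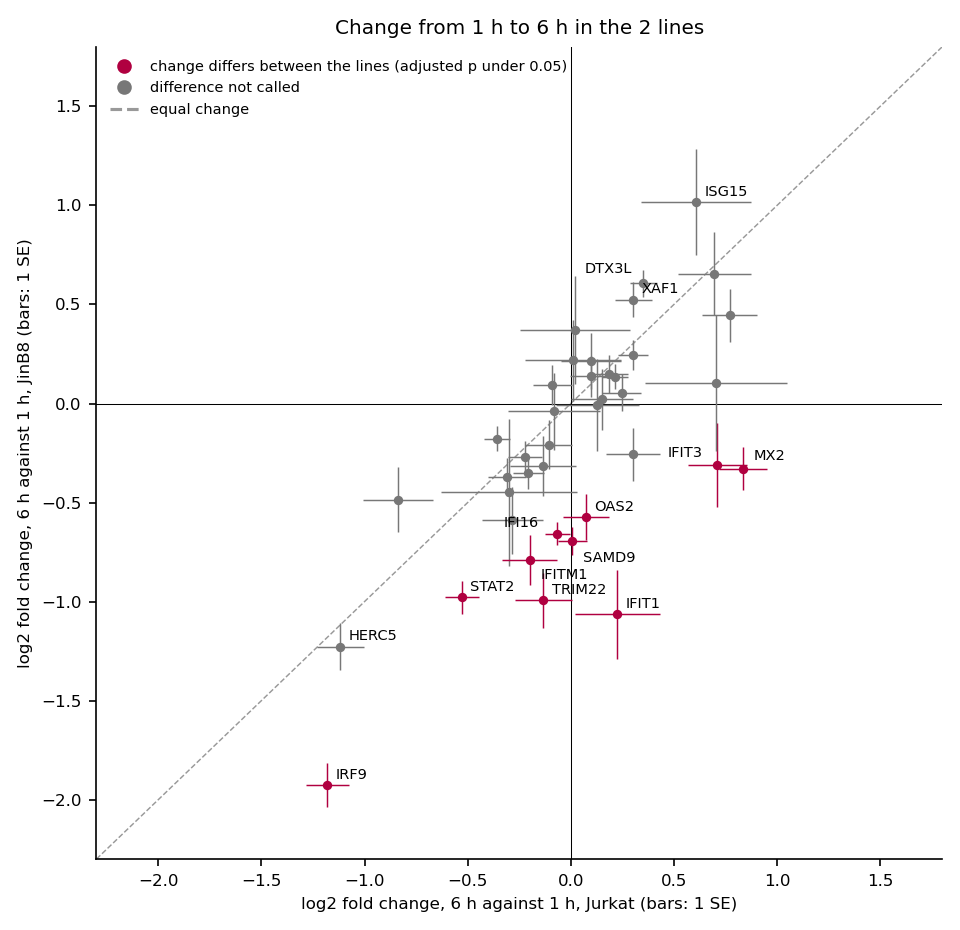
Log2 fold change from 1 to 6 h in Jurkat (horizontal axis) and JinB8 (vertical axis) for the 39 members tested, with bars of 1 SE and a diagonal of equal change. The 10 members in color, whose change differed between the lines in edgeR, lie below the diagonal, with MX2 at 0.84 and -0.33.

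Activation, and TSP1 in activated cells, gave no member calls. Neither TSP1 alone nor CD3+CD28+TSP1 was compared with untreated cells. The model held 1 effect per treatment over all times, so a response at a single time may be missed. No member was called by edgeR for CD3+CD28 against untreated cells (compared with a time term in each line, as untreated cells were sequenced only at 1 h), for CD3+CD28+TSP1 against TSP1, or for TSP1 in activated cells, in either line, or for the difference between the lines in the response to activation with TSP1. Among all genes, 0.0919% were called for CD3+CD28+TSP1 against TSP1 in Jurkat and 0% in each other comparison. At an unadjusted p under 0.05, the members for CD3+CD28+TSP1 against TSP1 numbered 0 in Jurkat (5.00% of all genes) and 6 in JinB8 (16.1% of all genes). For CD3+CD28 against untreated cells they numbered 3 in Jurkat (8.32%) and 0 in JinB8 (4.02%), for TSP1 in activated cells 0 (2.24%) and 2 (10.8%), and for the difference in response 3 (6.42%). Over the 39 members tested, these counts lay near or below the shares of all genes. DESeq2 and limma voom called 0 members in each of these comparisons. The 6 JinB8 members were SAMD9 (-0.29), SAMD9L (-0.26), IFIT5 (-0.30), DDX60 (-0.25), HERC5 (-0.29) and ISG20 (0.40), and their lowest adjusted p was 0.283. Over all 39 members tested, the log2 fold changes for CD3+CD28+TSP1 against TSP1 ran from -0.34 to 0.27 in Jurkat (median -0.05) and from -0.30 to 0.76 in JinB8 (median -0.11), and those for CD3+CD28 against untreated cells from -0.64 to 0.54 in Jurkat and from -0.81 to 0.59 in JinB8. A miss of the threshold does not show that a treatment left a member as it was, and each condition rests on 1 library per time.

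**Figure D5:**
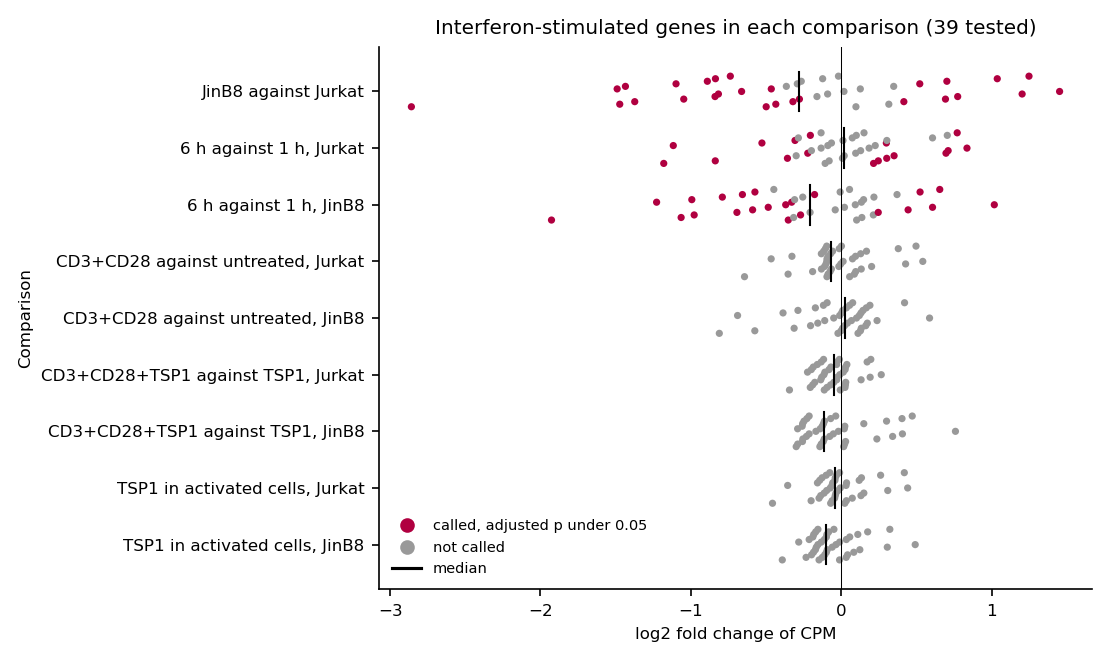
Log2 fold change of the 39 members tested in each of the 9 comparisons plotted, with 1 point per member and a bar at the median. Called members are in color. Among these, calls appear in the comparison of the lines (27) and of 6 h with 1 h (17 in Jurkat and 22 in JinB8) and in none of the comparisons of treatments; 3 h and the differences between the lines in response are not plotted.

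The genes around the ISGs were counted in lists. Of 10 interferon genes, none was tested, with 16 counts of IFNB1 over all Jurkat libraries and 7 over all JinB8 libraries, 4 and 8 of IFNG and 0 and 12 of IFNL1. Of 16 genes for receptors, kinases, STATs and their inhibitors, 15 were tested between the lines, with 3 higher in JinB8 and 4 lower, beside 19.8% and 20.6% of all genes, as for each list below. The inhibitor gene SOCS3 was higher (0.92, adjusted p = 8.0e-05), as was the phosphatase gene PTPN6 (0.69), and the kinase gene TYK2 (-0.37) and the transcription factor gene STAT3 (-0.26) were lower. JAK1 (-0.07) and IFNAR2 (0.05) were not called, and IFNAR1 was lower by edgeR at -0.40 (adjusted p = 0.00654). From 1 to 6 h, 1 of the 15 rose and 8 fell in Jurkat, beside 25.7% and 24.8% of all genes, and 2 rose and 9 fell in JinB8, beside 26.0% and 27.0%. JAK1 fell by 0.33 on the log2 scale in Jurkat and by 0.63 in JinB8.

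Of 19 genes for sensors and adaptors, 16 were tested, with 4 higher and 3 lower between the lines. IRF5, a factor downstream of Toll-like receptors, was higher in JinB8 (3.22, SE 0.345, adjusted p = 9.0e-08) with 0.0502 to 0.679 CPM in Jurkat and 1.45 to 4.26 CPM in JinB8, and STING1, the adaptor of cytosolic DNA sensing, was higher at 1.12. TLR3, the endosomal sensor of double-stranded RNA, was lower (-1.26). Of 17 genes that respond mainly to interferon gamma, 11 were tested, with 5 lower and 0 higher and a median of -0.37. GBP1, a guanylate-binding GTPase, was between 62.6 and 76.1 CPM in Jurkat and between 3.21 and 5.77 CPM in JinB8 (-3.86, SE 0.108, adjusted p = 8.9e-18), and GBP3 (-1.23), PSMB9 (-0.74) and TAP1 (-0.60), the last 2 of antigen processing, were also lower. Of 39 other ISGs, among them TAP1 again, 37 were tested, with 6 higher and 13 lower and a median of -0.08. The trypanolytic factor gene APOL1 (-2.94) and the nuclear body gene SP140 (-1.51) were lower by edgeR, and EPSTI1 (1.28) and the lysosomal reductase gene IFI30 (1.12) were higher. Between the lines, the lists with tested genes thus held calls in both directions, apart from that of interferon gamma, in which none was called higher. From 1 to 6 h, 7 of 16 sensors and adaptors rose and 2 fell in Jurkat, with 4 and 5 in JinB8. Of 11 genes of interferon gamma, 6 rose and 0 fell in Jurkat, with 5 and 1 in JinB8. Of 37 other ISGs, 10 rose and 15 fell in Jurkat, with 9 and 14 in JinB8. Among all genes, 25.7% rose and 24.8% fell in Jurkat, with 26.0% and 27.0% in JinB8.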

How the data were processed

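RNA from 20 libraries, 10 per line, had been sequenced with TruSeq mRNA libraries. Reads were trimmed by the authors (Cutadapt 1.18) and mapped with STAR 2.4.2a on GRCh38, and the authors estimated expected counts per gene and isoform with RSEM 1.3.3 on GENCODE 36, and these deposited expected counts are not normalized. Such counting shares reads among similar genes and isoforms by estimate. The authors later used limma voom with quantile normalization and ComBat; the batch is not named, so that step was not repeated. Each table holds 2 columns of no sample, which were not used. Samples were grouped by the labelled cell line.

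Counts were rounded for edgeR 4.0.16 (R 4.3.3) and DESeq2 1.42.0 and left unrounded for limma 3.58.1. Genes passing filterByExpr with the line as group (count 10, total 15) were scaled by TMM and tested by quasi-likelihood with Benjamini-Hochberg adjustment over all genes at 0.05. The lines were compared on 20 libraries without other terms, and time and treatment in 1 model with a coefficient per line and treatment and time terms per line. SE is the absolute log2 fold change divided by the square root of F. Pair differences used log2 CPM with a pseudocount of 0.5. The tests were tested on simulated data. Libraries of the lines matched by treatment and time deviated together (10 pairs, r from 0.126 to 0.602, although only 2 pairs correlated best with their own match), so a fit with the pairs as a block was added where it changed a call. Other alternatives were DESeq2, limma voom, upper-quartile factors, no or stricter low-count filters, time terms, subsets of pairs and each library left out. Positions are from GENCODE 44.

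Every member is accounted for. Named in full were the 8 higher and 8 lower called members with the largest changes between the lines and a mean of at least 1 CPM, up to 5 with the smallest p elsewhere, and the factors and RNA sensors. Names beyond this rule were chosen after their values were seen. The members and lists were chosen with earlier results of these data known. At least 1 gene of the lists is left out of the text.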

Additional observations from a re-analysis of the deposited data

Results flagged for a closer look

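A sample far from the others was found in 3 of 78 groups of 10 libraries, where chance gives about 1 in 20. IFIT1 was at 2.36 CPM in the Jurkat library of CD3+CD28 at 3 h, and the next library was at 3.87 CPM. ISG20 was at 13.8 CPM in the JinB8 library of CD3+CD28+TSP1 at 3 h, and the next was at 9.43 CPM. USP18 was at 19.3 CPM in that same library, the smallest of the series, and the next was at 24.3 CPM.

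A change from 1 to 6 h that differed between the lines by the edgeR interaction was found for 10 members, each more negative in JinB8: MX2 (-1.17), IFI16 (-0.59), SAMD9 (-0.70), IRF9 (-0.75), TRIM22 (-0.86), IFIT1 (-1.29), OAS2 (-0.65), IFIT3 (-1.02), STAT2 (-0.45) and IFITM1 (-0.59). Their adjusted p-values ran from 0.000292 (MX2) to 0.0409 (IFITM1). Calls of 5 of these 10 were kept under every alternative.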

How the results depend on the processing

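Of 215 alternative values of the counts that were above 0, 210 stayed within 1.5 times the reported count, and of 179 alternative values of the treatment counts of 0, 178 stayed at 0. Of 1249 alternative values of named members, 1234 kept their direction and side of the threshold. Calls were kept in every alternative by 18 of 27 members between the lines, 10 of 17 and 14 of 22 at 6 h in Jurkat and JinB8, 8 of 10 and 7 of 15 at 3 h. With each library left out in turn, the counts ran from 8 to 10 higher and 17 to 19 lower between the lines, 13 to 18 (Jurkat) and 16 to 24 (JinB8) at 6 h, 9 to 17 (Jurkat) and 9 to 17 (JinB8) at 3 h, 5 to 12 for the difference at 6 h and 0 to 0 for the treatments, except that a line's only untreated library could not be left out of its own comparison with untreated cells. The 17 in Jurkat at 3 h came without the JinB8 library of CD3+CD28+TSP1 at 3 h, and the 9 in JinB8 without that of CD3+CD28+TSP1 at 1 h. In these fits of 3 h the shares of all genes moved as well, as given above. The shares for the other ranges are not given here, so the ranges do not show a dependence particular to the members. Without a low-count filter, 1 member (ISG15, -0.82, adjusted p = 0.00154) was called for CD3+CD28 against untreated JinB8, an arm of 1 library. IRF7, called in no alternative, turned to -0.043 between the lines with limma voom and ran from -0.0312 to 0.16 with a library left out, being below 0 in 7 of those fits. With the replicate block of matched pairs, 10 members were higher (25.6%, beside 27.2% of all genes) and 21 lower (53.8%, beside 27.6%) between the lines, IRF9 being called at -0.38; no called member lost its call under the block. Time terms also gave calls of IRF9 (-0.38) and IRF1 (0.10, adjusted p = 0.0368). In the 6 activated pairs ISG20 was at 0.67 (adjusted p = 0.0585) and was not called. In the 4 unactivated pairs ISG20 was at 0.35, STAT2 at 0.74, HERC5 at -0.96 and BST2 at -0.27, none called. IFIT1 (-0.68 and -0.59), IFI27 (-0.53 and -1.06), CMPK2 (-0.24 and -0.28) and SAMD9 (-0.37 and -0.20) were called in neither the activated nor the unactivated pairs. Fewer libraries were fitted in these subsets. TRIM22 lost its call with limma voom (0.32, adjusted p = 0.133), with the JinB8 library of any 1 h treatment left out, with the Jurkat library of CD3+CD28 or TSP1 at 3 h left out (adjusted p from 0.0542 to 0.0700 over these) and in both subsets. The cause of these changes was not tested. Depth limits IFI44L and MX1, which did not pass the low-count filter.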
